A study of Mus musculus with 20 samples.

Results

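The genes described here are the potassium channel genes of the mouse, taken as every protein-coding gene whose symbol begins with Kcn in the NCBIM37 (mm9) annotation, with *Kcnq1* and *Kcnq1ot1* left out. The rule found 95 gene models with 93 symbols among 22367 protein-coding genes on the 21 assembled chromosomes, because *Kcnb2* and *Kcnh8* have 2 models each. The shorter one of each pair is called the short model. Each gene was taken as its body plus 1 kb on either side, here called its window. The windows ran from 2.71 to 1137 kb with a median of 28.8 kb, against a median of 17.4 kb for the other protein-coding genes, and together they held 9636 kb. Since a long window can catch more peaks, every member was set beside the 200 other protein-coding genes nearest to it in length.

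The study mapped 5-formylcytosine (5fC), an oxidised form of methylated cytosine, by chemical pull-down and sequencing in dissected tissues of E11.5 mouse embryos. The embryos were wild type (WT) or homozygous null for *Tdg*, the gene of thymine DNA glycosylase, which removes 5fC from DNA. In the null allele a neomycin resistance gene stands in for the part of *Tdg* that encodes the active region of the enzyme, and both genotypes came from crosses of heterozygotes and were compared within litters. Libraries were made from single embryos, 4 per genotype for hindbrain and 2 per genotype for heart, liver and carcass. WT hindbrains and null hindbrains came from 4 litters, and heart, liver and carcass were taken from the same 2 embryos of each genotype, from other litters than the hindbrains. Hindbrain and the other tissues therefore differ in litter as well as in tissue, and the effects of litter and tissue cannot be told apart.

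Of the 20 libraries, 19 were used. The second null liver held 228 peaks and was set aside, as the study had done for its quality, so that null liver is a single library and liver enters no test. The 10 WT libraries held between 1563 and 42013 peaks and the 9 null libraries between 101344 and 254319, covering 3.53 to 12.1% of all gene windows in the null libraries. The first null heart held 254319 peaks and the second 126531, and the main counts that rest on heart are given with each left out. The deposited peaks have a start and an end and no height, so the depth behind them is unknown, and a gene without a peak may still carry 5fC. The tissues are bulk dissections, in which 5fC in fewer cells and less 5fC per cell cannot be told apart. Peaks also cannot check the deletion, and *Tdg* itself had 3.16% of its window under peaks in null hindbrain and 11.8% in null heart.

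Potassium channels let potassium ions leave or enter the cell and so set its resting voltage and end its electrical impulses. The family is built from a few kinds of pore. Voltage-gated channels (Kcna to Kcnd, Kcnh, Kcnq) open on depolarisation, inward rectifiers (Kcnj) hold the resting voltage, two-pore channels (Kcnk) carry background leak, and the Kcnm, Kcnn and Kcnt channels respond to calcium or sodium. Modifier subunits (Kcnf, Kcng, Kcns, Kcnv) join Kv pores but make none of their own, and auxiliary subunits (Kcnab, Kcne, Kcnip, Kcnmb) tune them. In the heart several of them repolarise the beating muscle, and in the brain they shape firing. 5fC is made from methylated cytosine by TET enzymes, mainly at CpG dinucleotides, and is the substrate that TDG excises.

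The DNA under the peaks is shown first, as the middle of wide stretches of 3 kinds in the Kcn genes. All lines are the plus strand of NCBIM37 (mm9), whichever strand the gene is on, 300 bases each, with every CpG in capitals, since CpG is where 5fC forms. They come from the widest stretches whose 300 bases touched no untranslated region, 1 per gene. The first 3 lay under peaks in all 9 null libraries. The *Kcnn3* bases are chr3:89464401-89464700, inside a stretch of 1100 bp that reaches a coding exon, and hold 4 CpGs. The *Kcnip1* bases, chr11:33749851-33750150, are intronic with 6 CpGs. The *Kcnj12* bases, chr11:60841901-60842200, are intronic with 1 CpG.
Kcnn3: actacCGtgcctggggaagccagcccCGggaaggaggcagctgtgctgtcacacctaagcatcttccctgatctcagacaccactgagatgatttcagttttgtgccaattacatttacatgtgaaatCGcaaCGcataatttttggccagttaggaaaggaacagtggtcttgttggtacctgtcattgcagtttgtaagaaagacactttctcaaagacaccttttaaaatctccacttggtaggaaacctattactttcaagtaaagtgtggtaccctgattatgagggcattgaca
Kcnip1: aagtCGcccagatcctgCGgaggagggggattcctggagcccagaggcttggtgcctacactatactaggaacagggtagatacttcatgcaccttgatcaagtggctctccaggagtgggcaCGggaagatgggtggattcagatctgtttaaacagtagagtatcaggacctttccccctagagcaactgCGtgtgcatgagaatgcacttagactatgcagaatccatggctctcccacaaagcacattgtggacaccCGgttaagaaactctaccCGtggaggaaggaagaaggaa
Kcnj12: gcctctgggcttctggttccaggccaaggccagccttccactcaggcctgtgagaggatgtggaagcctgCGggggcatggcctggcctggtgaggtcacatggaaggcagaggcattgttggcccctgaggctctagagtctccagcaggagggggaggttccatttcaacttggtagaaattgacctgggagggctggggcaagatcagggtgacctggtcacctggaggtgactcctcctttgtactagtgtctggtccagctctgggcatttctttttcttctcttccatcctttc

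The next pair lay under peaks in all 4 null hindbrains and in no null library of another tissue. They are chr10:111879101-111879400 in an intron of *Kcnc2* with 3 CpGs and chr14:24127001-24127300 in an intron of *Kcnma1* with 4. *Kcnc2* is a Kv3 channel of fast-firing neurons, and *Kcnma1* is the large-conductance calcium-activated channel.
Kcnc2: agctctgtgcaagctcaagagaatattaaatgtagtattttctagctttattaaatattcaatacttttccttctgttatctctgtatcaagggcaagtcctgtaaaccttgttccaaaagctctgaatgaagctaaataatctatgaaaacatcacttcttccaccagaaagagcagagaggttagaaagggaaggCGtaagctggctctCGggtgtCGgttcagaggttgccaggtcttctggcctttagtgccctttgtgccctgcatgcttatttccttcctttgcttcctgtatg
Kcnma1: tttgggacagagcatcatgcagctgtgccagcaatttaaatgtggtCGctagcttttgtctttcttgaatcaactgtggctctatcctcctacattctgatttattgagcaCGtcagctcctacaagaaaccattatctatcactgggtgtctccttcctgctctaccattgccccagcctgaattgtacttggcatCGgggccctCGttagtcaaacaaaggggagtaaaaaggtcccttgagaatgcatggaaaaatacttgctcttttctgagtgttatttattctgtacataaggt

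The last pair lay under peaks in both null hearts and in no null hindbrain. They are chr7:53354101-53354400 in the coding exon of *Kcnj11*, the pore of the ATP-sensitive potassium channel, with 16 CpGs, and chr16:92355951-92356250 in an intron of *Kcne1* with 4. *Kcne1* encodes a small subunit that slows cardiac Kv currents. Peaks of carcass and liver were allowed in this kind. In *Kcne1* 2600 bp lay under both null hearts and no null hindbrain, but 200 bp under both null hearts and no other null library. For *Kcnj11* both figures were 3300 bp.
Kcnj11: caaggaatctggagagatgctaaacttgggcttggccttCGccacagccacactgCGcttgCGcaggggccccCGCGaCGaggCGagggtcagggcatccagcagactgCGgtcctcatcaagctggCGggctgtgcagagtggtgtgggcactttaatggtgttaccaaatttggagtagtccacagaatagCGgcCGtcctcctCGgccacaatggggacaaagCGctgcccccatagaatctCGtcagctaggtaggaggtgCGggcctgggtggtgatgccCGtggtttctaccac
Kcne1: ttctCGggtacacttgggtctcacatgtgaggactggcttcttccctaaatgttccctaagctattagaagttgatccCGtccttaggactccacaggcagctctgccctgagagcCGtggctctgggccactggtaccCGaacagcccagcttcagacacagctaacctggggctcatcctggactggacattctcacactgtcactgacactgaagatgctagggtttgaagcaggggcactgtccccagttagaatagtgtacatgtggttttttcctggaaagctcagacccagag

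Potassium channel genes carried 5fC peaks in all null tissues and few in WT. In the 4 null hindbrains the Kcn windows held 496, 451, 567 and 596 peaks, against 4, 32, 74 and 5 in the WT hindbrains. The null hearts held 987 and 432 peaks and the WT hearts 16 and 12. The null carcasses held 650 and 865 and the WT carcasses 154 and 125, and the null liver held 369 against 35 and 3 in the WT livers. No null library came within the WT range.

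As a share of bases, 3.59, 2.81, 3.73 and 4.12% of the Kcn windows lay under peaks in the null hindbrains. The share was 7.56 and 3.0% in the null hearts, 5.03 and 7.21% in the null carcasses and 2.61% in the null liver. WT libraries lay between 0.0145 and 0.810%. Genes of similar length were more covered in each of the 19 libraries. Their mean share, weighted by the members' lengths, was 4.92, 3.78, 4.92 and 5.17% in the null hindbrains, and the ratio of Kcn to similar-length genes was 0.731, 0.743, 0.758 and 0.797. The ratio was 0.629 and 0.539 in heart, 0.613 and 0.638 in carcass, 0.566 in liver and 0.372 to 0.690 in the WT libraries.

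**Figure D1:**
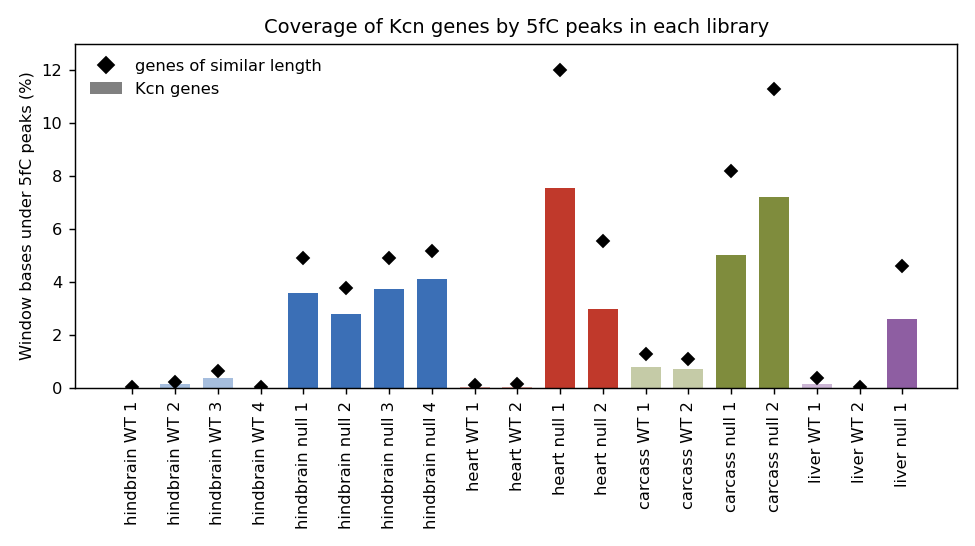
Percent of the bases of all Kcn windows under 5fC peaks (vertical axis) in each of the 19 libraries (bars), with the value of genes of similar length (diamonds). The diamonds lie above the bars throughout, and the null hindbrains, at 2.81 to 4.12%, spread less than the null hearts at 3.0 and 7.56%.

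The base-wise ratio was carried by the longest genes. When the members were put in 4 classes by window length, the 24 shortest (2.71 to 10.4 kb) had 1.79 times the coverage of their similar-length genes in null hindbrain, the next 24 had 1.87 times and the next 24 had 1.41 times. The 23 longest, from 100 to 1137 kb, had 0.600 times. In null heart the 4 ratios were 1.54, 1.25, 1.05 and 0.443, and in null carcass 1.39, 1.77, 1.31 and 0.503. In the null liver they were 0.904, 1.18, 1.26 and 0.437, so that the longest class was the least covered in each tissue.

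Counted gene by gene, the median Kcn gene was above that of similar-length genes in null hindbrain, heart and carcass and below it in null liver. The median member had 4.86% of its window under peaks in null hindbrain, against 2.69% for similar-length genes, and 58 of the 95 lay above their own similar-length median. In null heart the medians were 6.65 and 5.55% with 51 members above, in null carcass 5.20 and 3.71% with 48 above, and in null liver 1.01 and 1.66% with 36 above. A peak was present in 79, 74, 80 and 79 members in the null hindbrains, where a like number of similar-length genes would give 66.2, 62.8, 68.3 and 66.7. The null hearts had peaks in 84 and 68 members where 76.0 and 64.8 would be given, the null carcasses in 75 and 73 (63.5 and 68.3) and the null liver in 57 (56.6).

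Of the 95, 48 held a peak in every one of the 9 null libraries and 70 in all 4 null hindbrains. The *Kcnb2* short model, *Kcns2* and *Kcnv1*, the last pair being modifier subunits, had no peak in any of the 19 libraries. In WT 39 members had no peak in any library, and 18 had one in at least 5 of the 10. *Kcnh1*, the ether-a-go-go channel, had a WT peak in all 10 libraries. *Kcnq5*, an M-current channel, had one in 8, and *Kcnn3*, *Kcnab2* and *Kcnk10* in 7 each. *Kcng3*, *Kcnip1*, *Kcnj6* and *Kcnk2* had one in 6 each. The windows of *Kcnh1* and *Kcnq5* are long, at 321 and 566 kb.

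WT peaks in these genes recurred at a few places. A stretch of 400 bp in *Kcnh1*, chr1:194277801-194278200, lay under peaks in up to 8 WT libraries, and in 5 null libraries, which were the 4 hindbrains and the second carcass. It holds 2 CpGs and lies 263 kb from the start of the gene. Stretches in *Kcng3* (chr17:84017001-84017500, 15 CpGs, 6 WT libraries), *Kcnn3* (chr3:89417801-89418400, 12 CpGs, 5 WT libraries) and *Kcnk2* (chr1:191052601-191052800, 6 CpGs, 5 WT libraries) lay under peaks in all 9 null libraries as well. The *Kcnh1* stretch was the 1 of these 4 that null heart and null liver lacked.

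In hindbrain, WT peaks in Kcn genes mostly overlapped a peak of the null embryo from the same litter, with 4 of 4, 29 of 32, 59 of 74 and 3 of 5. Over all peaks of the same WT hindbrains the shares were 74.4, 82.4, 76.5 and 74.5%. In heart 5 of 16 and 2 of 12 did, beside 37.7 and 34.7% of all peaks, and in carcass 72 of 154 and 82 of 125 (46.8 and 65.6%), beside 55.6 and 72.4%. In liver 12 of 35 WT peaks of the first pair did (34.3%), beside 30.1%, and the second pair has no null library in use.

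Peaks lay more densely in exons than in introns of the Kcn genes. In null hindbrain 8.23% ± 1.39 (SD, n = 4) of exon bases were under peaks, against 3.33% ± 0.501 of intron bases. In null heart the means were 11.2 and 4.98%, in null carcass 9.39 and 5.94%, and in null liver 4.88 and 2.49%. The 2 kb on either side of the annotated start held 5.50% in null hindbrain, the bases 2 to 10 kb away 5.77% and those beyond 10 kb 3.33%. In null heart these were 8.86, 11.4 and 4.69%. The start itself was therefore not the most covered zone in either tissue.

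Bases under peaks were richer in CpG. Kcn bases under null hindbrain peaks had 17.7 CpGs per kb and those outside 8.21. The figures were 16.5 and 8.13 in heart, 15.6 and 8.10 in carcass and 16.9 and 8.33 in liver. Exons held 28.1 CpGs per kb and introns 7.47, so exon position and CpG density go together here, and their parts were not tested.

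**Figure D2:**
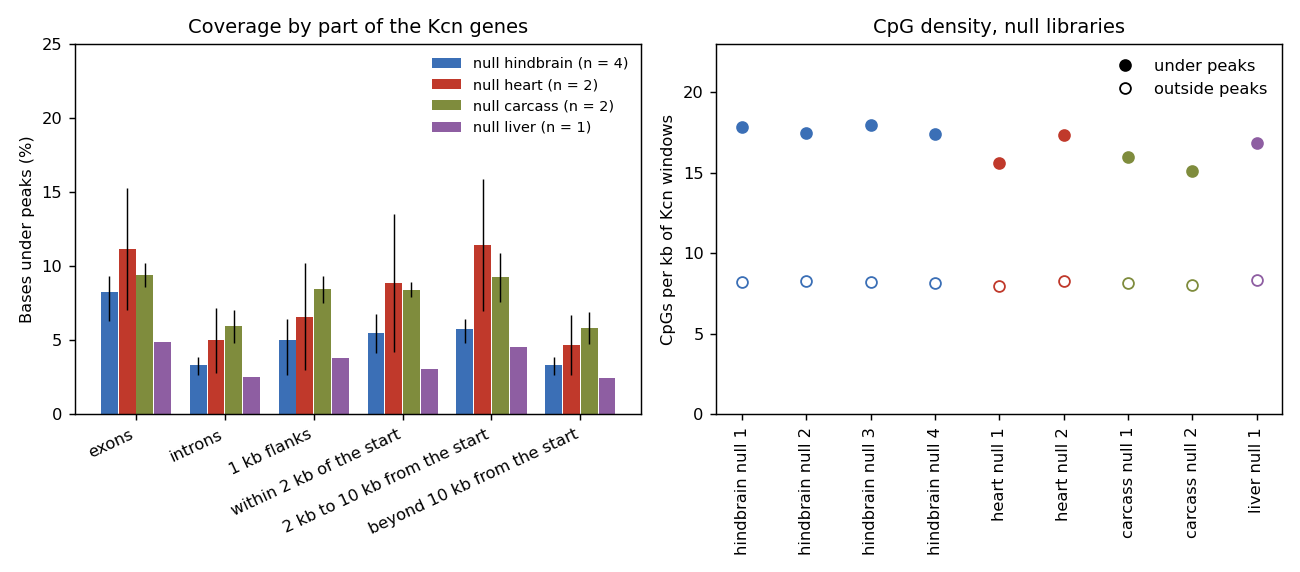
Left, percent of Kcn bases under peaks (vertical axis) by gene feature and distance from the start, as means of the null libraries of each tissue with the lowest and highest library as lines. Right, CpGs per kb of Kcn windows under peaks (filled) and outside peaks (open) in each null library; the filled points lie near 15 to 18 and the open ones near 8.

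Null was compared with WT in hindbrain, heart and carcass by limma on log2(percent under peaks + 0.5), fitted over the 17944 protein-coding genes with a peak in at least 1 library, and a gene was called at an adjusted p under 0.05. Of the 95 members, 92 could be tested. The 39 members without a peak in any WT library could enter this fit only through null libraries, so a lower call was not open to them. In hindbrain 75 were higher in null and 0 lower, beside 69.0% of all tested genes higher and 0.0446% lower. In heart 72 were higher and 0 lower, beside 74.0 and 0.379%, with 61 higher without the first null heart (65.7% of all genes) and 81 without the second (84.2%). In carcass 64 were higher and 1 lower, beside 59.2 and 0.680%. At an unadjusted p under 0.05 limma also put 0 members lower in null hindbrain and 0 in null heart, beside 0.0446 and 0.401% of all genes. The median difference of the members was 2.90 on the log2 scale in hindbrain, 3.27 in heart and 2.52 in carcass, where all tested genes had 2.50, 3.39 and 2.23. As shares of the members tested, the higher calls were 81.5% in hindbrain, 78.3% in heart and 69.6% in carcass. Some heart and carcass calls rest on peaks in 1 of the 2 null libraries.

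Peaks rose in number over all genes. Set relative to the coverage of all gene windows in the same library, the median difference of all tested genes was 2.05 in hindbrain, 2.16 in heart and 0.69 in carcass. Most WT windows hold no peak, and the pseudocounts of both scales differ, so the medians of the scales are not compared. On this scale 51 members were higher in null hindbrain and 0 lower (all genes 46.3 and 0.646%), 32 and 0 in heart (40.4 and 0.836%), and 22 and 3 in carcass (18.9 and 1.87%).

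Among Kv pores, *Kcna3*, the Kv1.3 channel, was the most covered member in null hindbrain, with 42.8, 42.8, 42.8 and 44.0% of its 3.97 kb window under peaks and 0 in all WT hindbrains. *Kcna3* entered the genotype fit only through null libraries, so its p is not given. It stood at 15.1 and 12.6% in null heart, 46.5 and 18.8% in null carcass and 15.1% in null liver. *Kcna5*, the Kv1.5 channel of atrial repolarisation, had 21.99, 19.99, 21.99 and 21.99% in null hindbrain, 53.4 and 36.0% in null heart and 42.0 and 28.6% in null carcass, and 0 in the null liver and in each WT library. Its hindbrain and heart values did not overlap on this scale, while relative to all genes they did, at 4.61 to 5.66 in hindbrain and 4.41 and 6.17 in heart.

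*Kcng4*, a modifier subunit, had 28.9, 28.9, 29.3 and 29.3% in null hindbrain, 35.3 and 13.7% in null heart and 47.7 and 53.9% in null carcass. Its null liver was at 0. *Kcnj9*, a G protein-gated inward rectifier of neurons, had 17.6, 15.6, 15.6 and 17.6% in null hindbrain, 14.7% and 0 in null heart and 14.0 and 33.6% in null carcass. Both genes had no peak in WT hindbrain, heart or carcass.

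Of the small Kcne subunits, *Kcne1* and *Kcne4* were among the 5 most covered members in null hindbrain, carcass and liver. *Kcne3* had a mean of 5.82% in null hindbrain, 19.5% in null heart and 0 in null carcass. *Kcne1l* had a mean of 14.8% in null hindbrain, from peaks in 3 of the 4 libraries, and none in the other null tissues. *Kcne1* had 31.4, 32.3, 33.0 and 34.3% in null hindbrain, 62.7 and 34.3% in null heart and 49.8 and 56.2% in null carcass, and 0, 5.17, 7.76 and 0 in WT hindbrain. It lay at percentile 100 of its similar-length genes in null hindbrain and null carcass. *Kcne4* was uneven, with 0, 35.3, 37.3 and 51.0% in null hindbrain, 60.8% and 0 in null heart, and 60.8 and 84.3% in null carcass. It rose in hindbrain (adjusted p = 0.0127) and carcass (0.0271), while its heart values run from none to over most of the window. The carcass call held in 6 of 13 settings and was lost without either null carcass or the first WT carcass, with a highest adjusted p of 0.225. The hindbrain call was lost in the exact permutation test over samples (two-sided, adjusted p = 0.207).

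*Kcne2*, whose product pairs with *Kcnh2* and other pores, was the 1 member called lower in null carcass. The null carcasses were at 0 and 0 and both WT carcasses at 6.46%. In null hindbrain it had 12.9, 12.9, 14.2 and 15.5%, and in null heart 37.0 and 14.2%. The call was lost in 4 of the 13 settings tried. In 1 of these, a flank of 10 kb, limma called *Kcne2* higher in null carcass (3.22 on the log2 scale, adjusted p = 0.00404). *Kcnh2*, the hERG channel, had 16.8, 12.1, 11.8 and 11.2% in null hindbrain and 59.4 and 26.8% in null heart, with 0 in every WT library.

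By kind of channel, the counts in hindbrain, beside 69.0% of all genes, were 12 of 17 tested Kv pores higher in null, 4 of 4 Kcnq, 9 of 9 Kcnh, 13 of 15 inward rectifiers, 9 of 14 two-pore channels, 7 of 8 ion-gated channels, 7 of 8 modifiers and 14 of 17 auxiliary subunits. In heart, beside 74.0%, they were 10, 3, 6, 14, 10, 7, 8 and 14 in the same order, and in carcass, beside 59.2%, 10, 4, 8, 10, 10, 6, 4 and 12. The auxiliary list includes a gene outside the Kcnab, Kcne, Kcnip and Kcnmb kinds. Members not called in hindbrain include *Kcnj11*, *Kcnk7*, *Kcnk15*, *Kcnj2* and *Kcng2*. The last had a peak in 1 library of the 19, the first null heart, at 62.8% of its 2.71 kb window. *Kcng2* was counted as higher in heart all the same. *Kcnj2* and *Kcnj9* were also called in heart with peaks in 1 of the 2 null hearts. In carcass *Kcnk15* was called with peaks in 1 of the 2 null carcasses.

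The tissues were then compared among the null libraries. Because these differ in the number of peaks called, the share of each window under peaks was divided by the share over all gene windows of the library, and this relative coverage is 1 for a gene covered like the average. limma was run on log2(relative coverage + 0.1) over 17704 genes with a peak in a null library, with 92 members tested. The 3 comparisons share libraries.

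Between null hindbrain and null heart, 22 members were higher in hindbrain and 6 in heart, 23.9 and 6.52% of those tested, beside 11.5 and 12.6% of all genes. The median difference was 0.33 on the log2 scale for the members and -0.08 for all genes. The balance depends on the scaling, which is given beside it. With the plain percent under peaks 6 members were higher in hindbrain and 12 in heart (all genes 2.85 and 22.0%), and scaled to the coverage of the whole genome 16 and 9 (all genes 8.65 and 16.3%). Without the first null heart the counts were 25 and 4 (14.5 and 10.7%), and without the second 14 and 5 (8.51 and 11.1%).

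*Kcnj11*, at chr7:53352533-53355607 on the minus strand, had the most heart-sided difference. It had 0 in all 4 null hindbrains, 67.0 and 65.0% in the null hearts and 0 in both null carcasses, the null liver and each WT library. Relative to all genes the hearts were at 5.53 and 11.1. The gene entered the fit only through its heart peaks, so its p is not given. With a flank of 10 kb, which takes in peaks around it, the difference from hindbrain was not called (-2.15, adjusted p = 0.151), nor was that from carcass (0.155). The peaks, from 0.107 to 3.51 kb past the start in both hearts, covered most of the 3.07 kb exon and ran past its end. *Abcc8*, which encodes the regulatory subunit of the channel, was not so divided, at a mean of 8.97% in null hindbrain, 19.4% in null heart, 21.1% in null carcass and 5.16% in null liver.

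*Kcnk3*, the acid-sensitive leak channel TASK-1 at chr5:30890543-30927643 on the plus strand, had 5.37, 3.07, 3.84 and 6.91% in null hindbrain, 33.2 and 22.8% in null heart, 7.42 and 8.70% in null carcass and 22.8% in the null liver. The heart values lay above each hindbrain and carcass value, and the log2 difference of hindbrain against heart was -1.56 ± 0.261 (SE, adjusted p = 0.00807). All 4 hindbrains, both carcasses and both hearts shared a peak near the start of its last exon, 33.7 kb from the gene's start, and 3 blocks of peaks in the intron, from 3.26 to 9.26 kb, were found in both hearts and in the null liver. The first null hindbrain and both null carcasses had peaks within the middle block and in neither of the other blocks. *Kcnk3* in null liver lay at percentile 99.5 of its similar-length genes.

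Some other rectifiers and a leak channel were also higher in heart than in hindbrain. *Kcnj1*, the ROMK channel, had 1.31, 1.39, 1.39 and 1.39% in null hindbrain and 31.5 and 8.26% in null heart (-2.29 ± 0.466, adjusted p = 0.0162). *Kcnj8*, the second ATP-sensitive pore, had 4.75, 5.94, 7.13 and 7.13% against 27.3 and 17.8% (-0.85 ± 0.237, adjusted p = 0.0439), and *Kcnj15* 4.92, 3.80, 5.37 and 3.13% against 28.9 and 10.1% (-1.0001 ± 0.254, adjusted p = 0.0339). The *Kcnj8* call held in 8 of 17 settings and was lost without either heart or without the second, the third or the fourth hindbrain, and that of *Kcnj15* held in 11 of 17 and was lost without either heart or without the first, the second or the third hindbrain. *Kcnj1* held in 12 of 17 settings and was lost without the first heart, with either other flank, with peaks per 10 kb and with the smaller pseudocount (highest adjusted p 0.131), and *Kcnk3* was lost without the second heart and with peaks per 10 kb (0.0959). *Kcnk7*, whose window lies 15.3% within *Ehbp1l1*, had peaks in no library but the null hearts, at 14.8 and 16.9%, so that it too entered the fit only through them, and with a flank of 10 kb it was not called (adjusted p = 0.362). *Kcnj8* had 14.3% in the null liver. Relative to all genes it stood at 3.28 there, 2.25 and 3.06 in null heart and 1.32 and 1.07 in null carcass. *Kcnj15* had 2.05 and 2.46 in null carcass and 1.75 in null liver, against 2.38 and 1.73 in null heart. *Kcnj1* had 2.06 in null liver and 0.182 and 0 in null carcass, against 2.60 and 1.42 in null heart.

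In the other direction, Kv3 channels of fast-firing neurons were higher in hindbrain. *Kcnc1* had 18.3, 13.1, 17.4 and 16.9% in null hindbrain and 12.8 and 5.70% in null heart, or 3.89, 3.70, 3.75 and 3.55 against 1.05 and 0.977 relative to all genes (1.78 ± 0.137, adjusted p = 0.000268). On the plain percent both hearts lay below the lowest hindbrain, the first closely, and the call was lost on that scale (adjusted p = 0.0962), while on the relative scale the groups are farther apart. *Kcnc4* (3.12 ± 0.727, adjusted p = 0.0258) and *Kcnc2* (1.66 ± 0.28, adjusted p = 0.00827) were higher as well, but the *Kcnc4* call was lost without any 1 of the 4 hindbrains (highest adjusted p 0.144). Peaks of *Kcnc1* 1.13 to 1.83 and 31.1 to 31.8 kb from its start recurred in all 4 null hindbrains and both null carcasses, and no null heart had one there.

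*Kcnk12*, a two-pore subunit, had 5.40, 7.43, 9.28 and 6.69% against 3.69 and 1.11% (2.32 ± 0.305, adjusted p = 0.00299), and *Kcnn1*, the SK1 calcium-activated channel, 8.25, 4.13, 4.72 and 9.43% against 2.36 and 0.312% (2.85 ± 0.42, adjusted p = 0.00481). The *Kcnn1* call was lost with peaks per 10 kb (limma adjusted p = 0.121).

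*Kcnd1* (2.79 ± 0.464, adjusted p = 0.00798), *Kcna3* (2.51 ± 0.477, adjusted p = 0.0128) and *Kcnj9* (3.43 ± 0.926, adjusted p = 0.041) were also higher in hindbrain. The *Kcnj9* call held in 7 of 17 settings and was lost without any 1 hindbrain, with no scaling and scaled to the genome (highest adjusted p 0.170), *Kcna3* lost the call without the first heart (0.0784), and *Kcnd1* with no scaling and with peaks of at least 600 bp (highest 0.324). *Kcnma1*, with 5.37, 3.65, 5.59 and 5.03% against 6.32 and 1.90%, was higher relative to all genes (1.23 ± 0.197, adjusted p = 0.00669) but its plain percents overlapped. The *Kcnh8* short model had peaks in null hindbrain and none in the other null tissues, and entered the fit only through hindbrain. *Kcnk12* was among the 4 genes, of 16 followed in this comparison, that were called under each alternative tried. *Kcnc2* and *Kcnma1* were not among the 16.

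**Figure D3:**
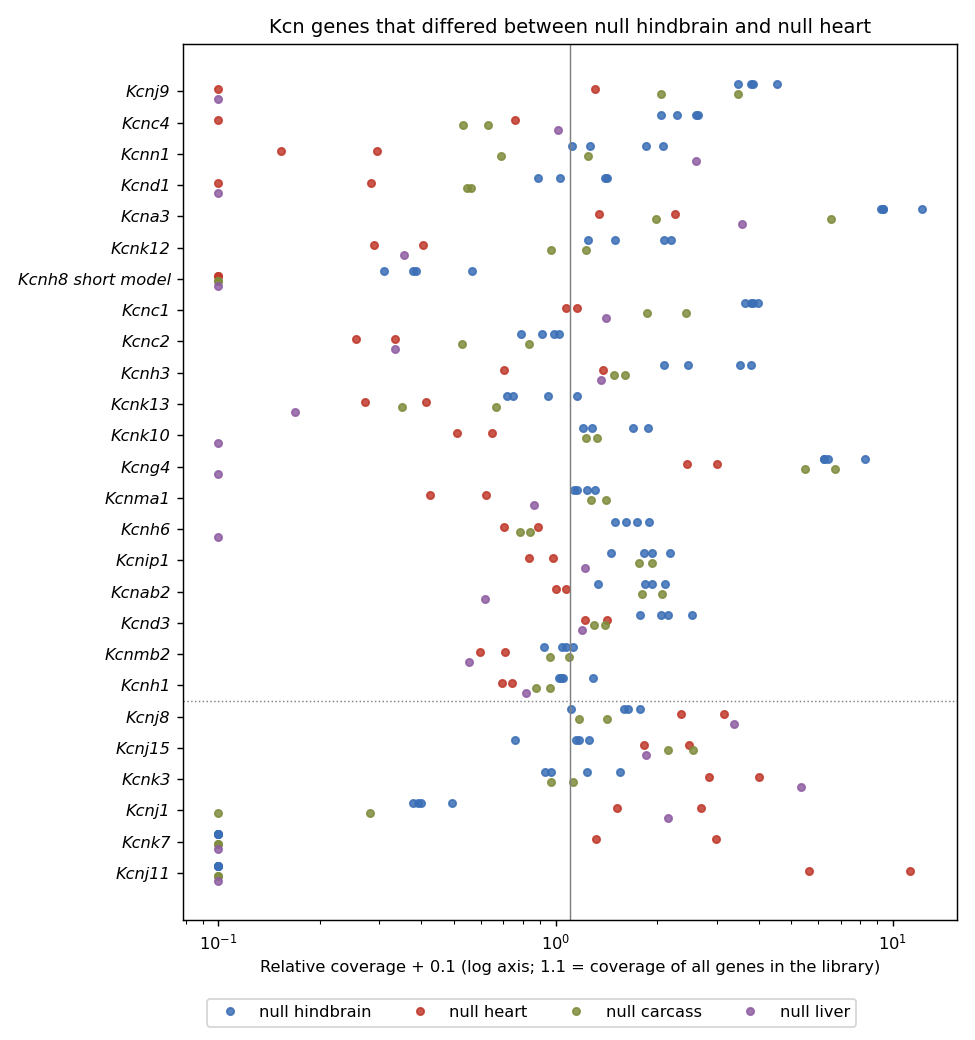
Relative coverage + 0.1 on a log axis in each null library for 26 of the members that differed between null hindbrain and null heart, with 1.1 marked as the coverage of all genes in the library. The 20 above the dotted line were higher in hindbrain and the 6 below it in heart; points at 0.1 hold no peak, as in both hearts for the *Kcnh8* short model and all 4 hindbrains for *Kcnj11*.

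**Figure D4:**
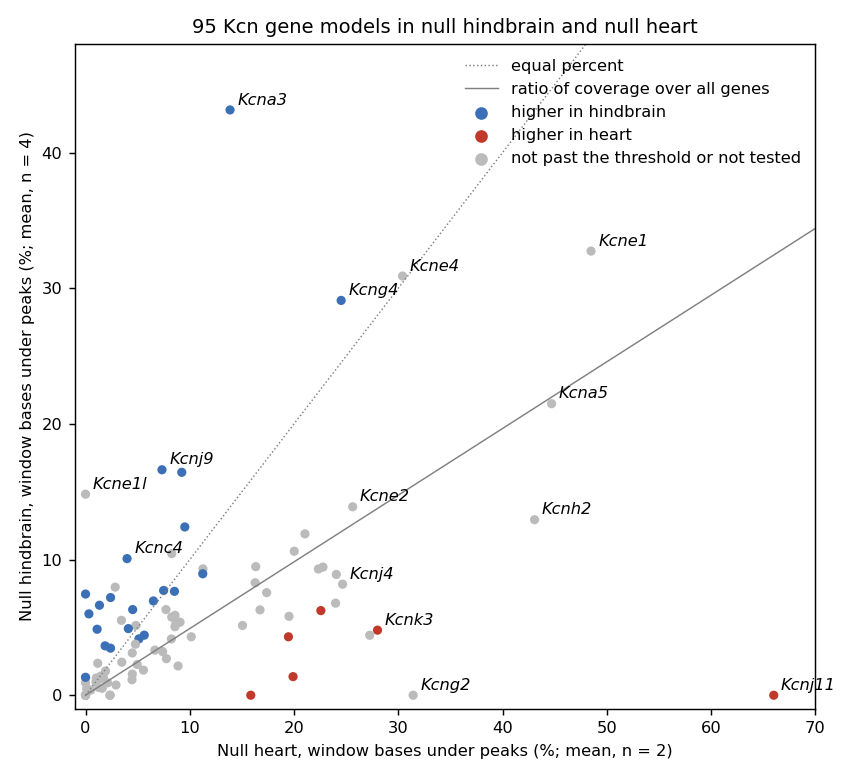
Mean percent of each of the 95 windows under peaks in null hindbrain (vertical axis, n = 4) against null heart (horizontal axis, n = 2), each point a gene model. *Kcnj11* lies at 66.0 and 0, *Kcna3* at 13.9 and 43.1, and the solid line is the ratio of coverage over all genes.

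By list, beside 11.5% of all genes higher and 12.6% lower, hindbrain was higher for 7 of 17 Kv pores and lower for 0, for 4 and 0 of 9 Kcnh, 3 and 0 of 17 auxiliary subunits, 2 and 0 of 8 ion-gated channels, 3 and 2 of 14 two-pore channels and 1 and 0 of 8 modifiers. Inward rectifiers went 1 higher and 4 lower of 15. Of 15 genes listed for cardiac currents, 1 was higher and 3 lower, and of 18 listed for neuronal firing, 7 were higher and 0 lower. The medians were 0.68 for the Kv pores, 0.92 for Kcnh, -0.37 for the inward rectifiers, -0.09 for the cardiac list and 0.63 for the neuronal list, beside -0.08 for all genes. With no scaling, beside 2.85 and 22.0% of all genes, 2 Kv pores were higher and 1 lower, 0 and 5 inward rectifiers, 0 and 5 of the cardiac list and 2 and 0 of the neuronal list, with medians of -0.0351, -1.27, -1.01 and -0.0578 beside -0.88 for all genes. Without the first null heart these 4 lists had 6 and 0, 2 and 1, 2 and 2, and 7 and 0, and without the second 6 and 0, 1 and 3, 0 and 2, and 6 and 0. Among 12 partners of the channels that are not Kcn genes, 2 were higher and 1 lower.

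The lists were also summed on the relative scale. Over its windows, the neuronal list had a relative coverage of 0.574 in null hindbrain, 0.368 in null heart, 0.522 in null carcass and 0.426 in null liver. The cardiac list had 0.958, 0.923, 0.670 and 0.766. Inward rectifiers had 1.03, 1.09, 0.794 and 0.864, and modifiers 1.41, 0.935, 1.30 and 0.959. Summed in this way, which weights each gene by its window length, the cardiac list was not above 1 in heart. Its genes differed widely there. *Kcnj11* (8.34), *Kcne1* (5.52), *Kcna5* (5.29), *Kcnh2* (4.74) and *Kcnk3* (3.32) were among those with a mean above 1, and others lay below it, such as *Kcnd2* (0.105).

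Genes that mark the tissues moved with these counts. Of 5 heart markers that could be tested, 4 were lower in hindbrain and 0 higher, and the summed relative coverage of the list was 0.682 to 0.729 in the null hindbrains and 2.03 to 2.56 in the null hearts. Of 4 hindbrain markers tested, 4 were higher, with 0.600 to 0.862 in the null hindbrains and 0.131 to 0.204 in the null hearts. The heart marker *Hand2* and the hindbrain marker *Sox2* had no peak in any library, and the hindbrain marker *Zic1* had one in a WT liver. The null liver had 1.56 on the heart list and 1.61 on the liver list. The part of cell content in the Kcn differences was not tested.

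Null hindbrain and null carcass differed less. 6 members were higher in hindbrain and 0 lower, beside 3.22 and 1.61% of all genes, and with the plain percent 3 and 0, beside 1.04 and 1.94%. At an unadjusted p under 0.05 limma put 19 members higher and 3 lower, beside 15.6 and 5.59% of all genes. *Kcne2* and *Kcna4*, the Kv1.4 channel, are listed at 0 in both null carcasses. *Kcna4* had 4.06, 5.07, 5.07 and 3.04% in null hindbrain (adjusted p = 0.00569), and *Kcne2* had an adjusted p of 0.000206. *Kcnh6* was 1.05 higher on the log2 scale (adjusted p = 0.0277) and *Kcnc1* 0.84 (0.0221), and the *Kcnh8* short model was listed at 0 in carcass. The *Kcnh6* call held in 9 of 17 settings and was lost without either carcass or without the first, the second or the third hindbrain, and *Kcnc1* lost it without the second or the third hindbrain. *Kcna4* lost the call with peaks of at least 600 bp, and *Kcne2* with a flank of 10 kb.

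Between null heart and null carcass, from the same embryos, 8 members were higher in heart and 10 in carcass, beside 12.3 and 6.42% of all genes. With the plain percent the counts were 7 and 2 (7.63 and 2.65%), and scaled to the coverage of the genome 11 and 8 (15.6 and 5.21%). Without the first null heart they were 9 and 19 (12.0 and 12.0%), without the second 7 and 4 (11.7 and 5.45%), and without the first null carcass the second count was 6 (4.55%). *Kcnj11* and *Kcnk7* are 2 of the 8 and entered the fit only through their heart peaks. *Kcne2* and *Kcna4*, at 0 in carcass, were higher in heart, as were *Kcnj1* (3.59, adjusted p = 0.00627), *Kcnk3* (1.69, 0.0122), *Kcnj4* (1.31, 0.0431) and *Kcnj8* (1.08, 0.0398). *Kcnn1*, *Kcnk12*, *Kcnma1*, *Kcng4*, *Kcnk10*, *Kcnip1*, *Kcnc1* and *Kcnab2* were among those higher in carcass. Without 1 of the 4 libraries, calls were lost for *Kcnk3*, *Kcnj4*, *Kcnj8*, *Kcnn1*, *Kcnk12*, *Kcng4*, *Kcnk10*, *Kcnip1* and *Kcnab2*, of which *Kcnab2* held in 7 of 15 settings and *Kcnj8* and *Kcnn1* in 8. With no scaling *Kcnc1* (adjusted p = 0.169) and *Kcnma1* (0.150) were not called either, and with a flank of 10 kb *Kcnk7* was not (0.0647). *Kcne2* was also not called with that flank (0.848), nor was *Kcna4* with peaks of at least 600 bp (0.265). Of the cardiac list 5 were higher in heart and 0 in carcass, and of the neuronal list 0 and 4. With no scaling the counts were 4 and 0 and 0 and 2, without the first null heart 5 and 1 and 0 and 7, and without another of the 4 libraries 3 to 4 and 0, and 0 and 4 to 5.

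Whether the rise from WT to null itself differed between hindbrain and heart was tested as the difference of both differences in the genotype fit, a comparison added after the data were seen. For 6 members the rise was larger in hindbrain and for 9 larger in heart, beside 2.47 and 15.2% of all genes. Scaled to the coverage of genes the counts were 8 and 3 (4.14 and 5.55%), and with litter as a block 5 and 5. Without the first null heart they were 19 and 8 (8.25 and 10.4%), without the second 4 and 21 (2.48 and 30.1%). *Kcnj11* and *Kcnk7*, with peaks in null heart alone, and the *Kcnh8* short model, with peaks in null hindbrain alone, are among the 15 and entered the fit only through those peaks. *Kcna3*, *Kcnk12* and *Kcnn1* were among those that rose more in hindbrain, and *Kcnj1*, *Kcnj4*, *Kcnk3*, *Kcnj15*, *Kcnh2* and *Kcna5* among those that rose more in heart. With litter as a block the difference was no longer called for *Kcnk12* (adjusted p = 0.0901), *Kcnj4* (0.0588), *Kcnj15* (0.0754) and *Kcna5* (0.066). *Kcnk12* held in 8 and *Kcnj4* in 7 of 22 settings, and these 4 genes and *Kcnn1* also lost the call when 1 of several libraries was left out. Scaled to the coverage of genes, those 4, *Kcnh2* (0.326) and *Kcnk3* were not called, and with a flank of 10 kb *Kcnj11* (0.0609), *Kcnk7*, *Kcna3* (0.427), *Kcna5*, *Kcnk12*, *Kcnn1* and *Kcnj1* were not. *Kcnj1* lost the call with the smaller pseudocount as well (highest adjusted p 0.0852).

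Peaks were also followed as stretches of bases shared by libraries. Under peaks in all 9 null libraries lay 40 stretches in 24 members, 23.3 kb in all, with 22.2 CpGs per kb and 15% of them reaching an exon. *Kcnn3*, the SK3 channel, held 5 of them with 4200 bp. The printed *Kcnn3*, *Kcnip1* and *Kcnj12* bases come from this class, and differ from 1 to 6 CpGs. Under peaks in all 4 null hindbrains and no other null library lay 35 stretches in 23 members, 8.3 kb in all, 20% of them in exons. *Kcnma1* held 4 of them with 1000 bp and *Kcnd2*, the Kv4.2 channel, 4 with 900 bp.

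Under peaks in both null hearts and no null hindbrain lay 329 stretches in 59 members, 161 kb in all, of which 12.2% reached exons. *Kcnk3* held 7 with 6100 bp, *Kcnn3* 17 and *Kcnj6* 13. The widest, 2500 bp, was that of *Kcnj11*, from which the bases above were printed. Asking for 2 hearts admits more stretches than asking for 4 hindbrains, and the first null heart held the most peaks of any library, so the numbers of the 2 classes are not compared. Both null carcasses and no other null library shared 286 stretches in 45 members, of which 3.15% reached exons.

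**Figure D5:**
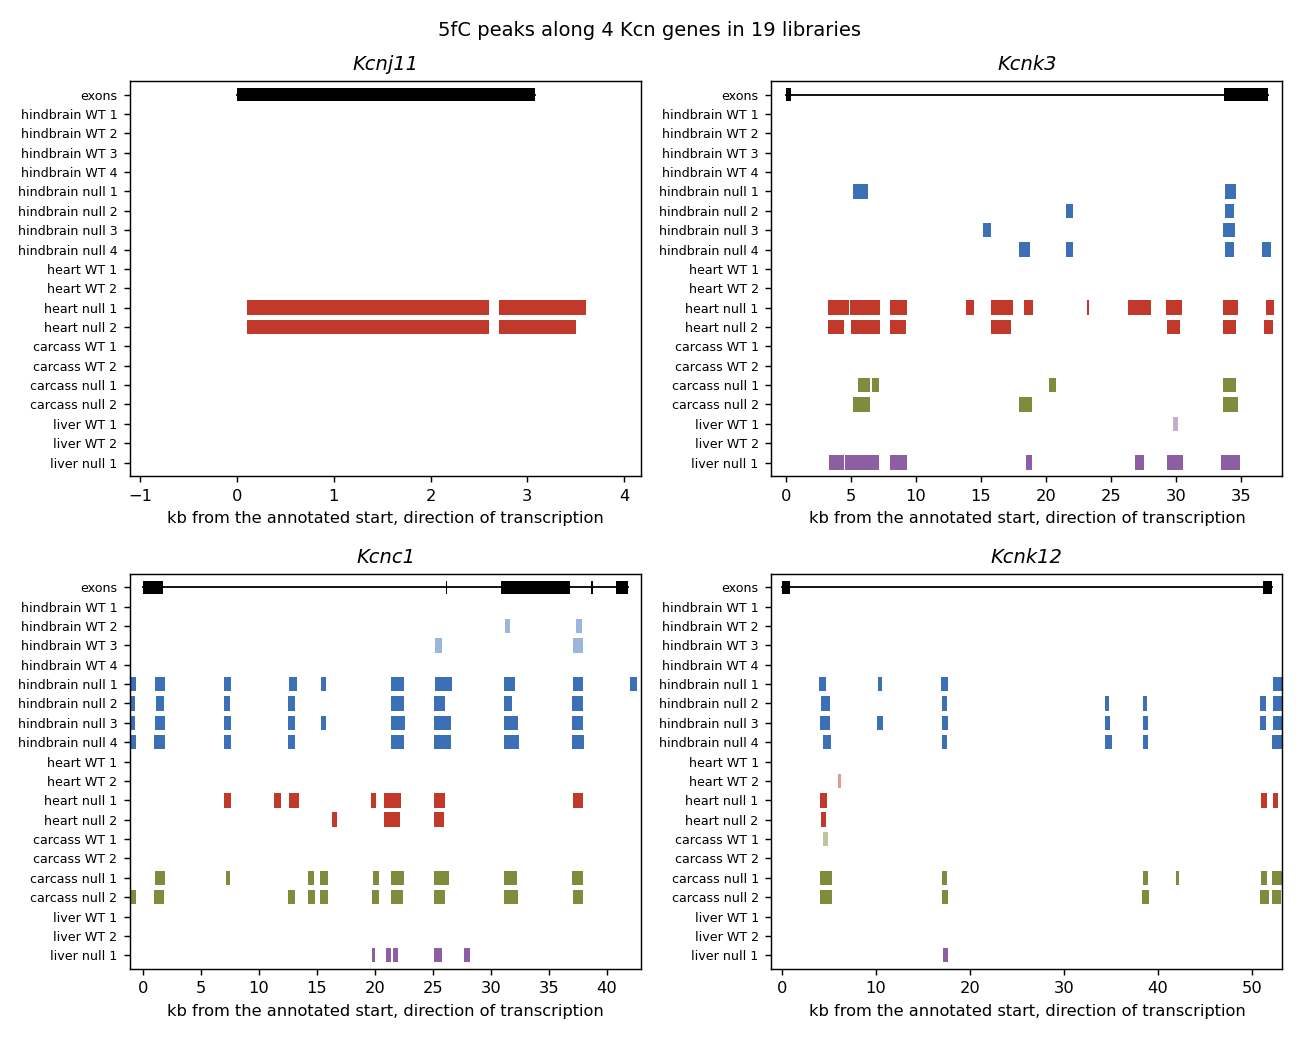
Peaks (coloured bars) of the 19 libraries along *Kcnj11*, *Kcnk3*, *Kcnc1* and *Kcnk12*, with distance in kb from the annotated start in the direction of transcription and exons in black above. *Kcnj11* has peaks in the 2 null hearts and no other library, and *Kcnk12* has a peak near 17 kb in the null hindbrains, carcasses and liver and in no null heart.

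Some windows overlap other genes, and their peaks cannot be assigned to one of them. The *Kcnmb1* window lies 100% within *Kcnip1* and that of *Kcnj13* 100% within *Gigyf2*. *Kcnk15* lies 12.3% within *Rims4*, *Kcnj14* 5.07% within *Grwd1* and *Kcnab2* 2.94% within *Chd5* and *Nphp4*, and the 2 *Kcnb2* models adjoin.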

How the data were processed

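The authors trimmed the reads with Trim Galore, aligned them to NCBIM37 (mm9) with Bowtie2 and called peaks in each pull-down library with the MACS caller of SeqMonk. The deposited files list the start and end positions of the peaks, on a grid of 100 bp, with no count, height or input, so the depth of each library is unknown and no counting interval can be given. Gene models, exons and bases came from the GENCODE annotation and the genome of the same build.

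For each window (gene body and 1 kb) the percent of bases under peaks was computed with Python 3.11.15, numpy 2.4.6, pandas 2.3.3 and pysam 0.24.0. limma 3.58.1 in R 4.3.3 tested log2(percent + 0.5) between genotypes, over 10 WT and 9 null libraries in 1 fit, and log2(relative coverage + 0.1) between null tissues, with Benjamini-Hochberg adjustment over all genes tested and a threshold of 0.05. Relative coverage is the share of a window under peaks divided by that over all gene windows of the library. Hindbrain libraries came from separate embryos, and heart, liver and carcass shared 2 embryos of each genotype, which the fits between tissues blocked only as an alternative. Litters were paired by the labels, and the deviations of WT and null libraries of 1 litter correlated at 0.0534, 0.0108, -0.0212 and -0.0456 in hindbrain, -0.0502 in heart and -0.0604 in carcass over 17944 genes. No 2 libraries held the same peaks.

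The members, lists and tests were chosen with earlier results of these data known. The genes named were, for each comparison, the 10 with the largest difference in each direction past the threshold, the 5 most covered and the 3 highest against similar-length genes in each null tissue, those with WT peaks in at least 5 libraries (up to 10), those without any peak, and the most covered members of each list; *Abcc8* and genes of figures or lists outside this rule were named after their values were seen. Some genes and sequences are not reported here, while counts over the members include all of them, and the maps of *Kcnc1* and *Kcnk12* were chosen after their values were seen. Sequences were read from the genome, and stretches whose bases touched an untranslated region were passed over, which the rule did not foresee. The alternatives were other flanks, wider peaks, other filters, pseudocounts and scalings, peaks in place of bases, litter as a block, and each library left out. Figures were drawn with matplotlib 3.10.9.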

Additional observations from a re-analysis of the deposited data

Results flagged for a closer look

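Among 54 groups of 4 libraries examined, 7 held a library apart from the other 3; chance gives about 1 in 20 where values are not tied. Peaks lie on a grid of 100 bp, so 3 libraries with equal values make a small step stand apart, as in *Kcna3*, *Kcna5* and *Kcnj1*. In null hindbrain these included *Kcna3* in replicate 4 (44.0%, the others 42.8%), *Kcna5* in replicate 2 (19.99%, the others 21.99%), *Kcng1* in replicate 4 (12.7%), *Kcnh2* in replicate 1 (16.8%) and *Kcnj1* in replicate 1 (1.31%, the others 1.39%). In WT hindbrain *Kcnip1* in replicate 3 had 1.45%, and that library held the most peaks of the WT hindbrains.

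The difference from WT to null differed between hindbrain and heart for 15 members by the test of that difference, 6.52% of those tested with the larger rise in hindbrain and 9.78% in heart, beside 2.47 and 15.2% of all genes. For 12 of them the fitted values, hindbrain minus heart on the log2 scale, were -7.06 for *Kcnj11*, -5.03 for *Kcnk7*, -3.16 for *Kcnj1*, -2.72 for *Kcnj4*, -2.46 for *Kcnk3*, -1.90 for *Kcnj15*, -1.61 for *Kcnh2* and -1.01 for *Kcna5*. They were 1.61 for *Kcna3*, 1.85 for the *Kcnh8* short model, 2.08 for *Kcnk12* and 2.15 for *Kcnn1*. With litter as a block *Kcnj4*, *Kcnj15*, *Kcna5* and *Kcnk12* were no longer called, at adjusted p of 0.0588, 0.0754, 0.066 and 0.0901. *Kcnj11* and *Kcnk7* entered the fit only through null heart and the *Kcnh8* short model only through null hindbrain. Several of these genes had groups at 0, so the sizes depend on the pseudocount and are no fold changes.

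The second null liver, which entered no comparison, had a peak in 1 Kcn gene, *Kcnab1*, over 0.222% of its window.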

How the results depend on the processing

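With genes required to have a peak in 50% or more of the libraries, 44, 43 and 38 Kcn genes of 44 tested were higher in null hindbrain, heart and carcass, beside 98.0, 96.0 and 87.0% of 7224 genes. Scaled to the coverage of genes, 32 were higher in heart, and 22 higher and 3 lower in carcass. The count lower in carcass was 0 with a flank of 10 kb, with that filter and with peaks of at least 600 bp, 2 with no flank, and 0 to 2 with 1 library left out. For hindbrain against heart, 6 were higher with no scaling, 13 with peaks per 10 kb, and 14 to 25 with 1 library left out, while 12 were lower with no scaling and 3 with a flank of 10 kb or peaks per 10 kb. For hindbrain against carcass, 3 were higher with no scaling, peaks of at least 600 bp or peaks per 10 kb, and 1 was lower with a flank of 10 kb or peaks of at least 600 bp, with 0 to 1 when 1 library was left out. For heart against carcass, 5 were higher and 5 lower with peaks per 10 kb, 2 were lower with no scaling, and 4 to 19 with 1 library left out.

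For the difference between hindbrain and heart of null against WT, 0 were higher with that filter on libraries and 4 to 19 with 1 library left out; 5 were lower with a flank of 10 kb, a smaller pseudocount or litter as a block, 2 with the filter, 15 with a larger pseudocount, 3 scaled to the coverage of genes, and 5 to 21 with 1 library left out. The litter block, a pairing the labels give, changed no other count by over 1.5 times.

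With a flank of 10 kb, *Kcne2* turned to 3.22 in carcass (null against WT), where limma called it higher (adjusted p = 0.00404). It turned to -0.84 for hindbrain against carcass and -0.18 for heart against carcass, neither of them called. *Kcnn1* turned to -0.38 in the difference between tissues. *Kcnj8* turned to 0.0088 with peaks per 10 kb, and *Kcnc1* against carcass to -0.0786 with no scaling. The mean ratio of Kcn to similar-length genes over the null libraries was 0.878 with the second null liver, and 0.387 over WT with peaks of at least 600 bp. The causes were not tested. Of 267 gene and setting pairs for hindbrain against heart 44 lost the call and 1, that of *Kcnj8*, turned and lost it too. Peak positions carry no depth, null heart and carcass have 2 libraries each and liver 1, and most WT windows hold no peak, which limits what these comparisons can show.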
